A study of Mus musculus with 38 samples.

Results

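The set described here holds 45 genes of DNA synthesis and mitosis, taken by name as genes that proliferating cells switch on and that p21 is known to hold down. It covers 45 of the 20018 genes that the arrays measured under a gene symbol, and all 45 had a probe. Each gene was read from its brightest probe, and the value was log2 of the tissue RNA (Cy5) over a universal reference RNA pooled from 11 mouse cell lines (Cy3). RNA came from lung and forestomach of male MutaMouse aged about 10 weeks, a mouse strain that carries a bacterial lacZ transgene for scoring mutations. The mice were gavaged daily for 28 days with dibenz(a,h)anthracene (DBahA), a polycyclic aromatic hydrocarbon, in olive oil, and organs were collected 72 h after dosing ended. D0 mice received olive oil alone. The daily dose per kg of body weight was 6.25 mg for D1 mice, 12.5 mg for D2 mice and 25 mg for D3 mice. Lung was measured in 5, 5, 4 and 5 mice of D0 to D3 and forestomach in 5, 5, 4 and 4 mice. RNA was taken from a random section of each tissue. The name under which the genes were collected calls them repressed by p21. In lung Cdkn1a, the p21 gene, and many of the 45 genes rose together, so the set is called the S-phase and mitotic genes below. Whether p21 represses them in these tissues was not tested.

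p21 is an inhibitor of cyclin-dependent kinases that p53 switches on after DNA damage. With the kinases inhibited, RB-family pocket proteins stay unphosphorylated and keep E2F sites of S-phase genes and the CHR elements of mitotic genes (through the DREAM complex) silent. When cells enter the cycle, E2F factors first drive genes of DNA synthesis, and MYBL2 and FOXM1 then drive genes of mitosis. Adult lung is a tissue of slow turnover, whereas the stratified squamous epithelium of the forestomach is renewed continuously from its basal layer.

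The promoters of 5 of these genes, taken in a set order, are shown with any CHR, CCAAT or E2F words they hold. These are the elements through which the pathway is known to act. Each sequence runs 5′ to 3′ on the strand of the gene, from 160 bases before to 30 bases after the start, in the RefSeq table of build GRCm38.p6. Capitals mark the core CHR word TTTGAA, the CCAAT box (ATTGG on the other strand) and E2F words.
Ccnb1: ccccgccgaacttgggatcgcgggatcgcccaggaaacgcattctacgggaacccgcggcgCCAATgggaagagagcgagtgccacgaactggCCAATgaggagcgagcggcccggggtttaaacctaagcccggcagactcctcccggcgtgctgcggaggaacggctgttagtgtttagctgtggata
Ccnb2: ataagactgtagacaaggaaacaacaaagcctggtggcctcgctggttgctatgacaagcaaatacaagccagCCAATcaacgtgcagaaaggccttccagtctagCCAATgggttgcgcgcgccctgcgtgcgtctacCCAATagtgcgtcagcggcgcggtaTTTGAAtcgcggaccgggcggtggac
Cdk1: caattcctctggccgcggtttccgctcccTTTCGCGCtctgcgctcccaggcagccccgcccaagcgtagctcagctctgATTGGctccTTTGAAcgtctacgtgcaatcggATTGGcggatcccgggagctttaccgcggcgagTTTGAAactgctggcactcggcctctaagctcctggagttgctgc
Plk1: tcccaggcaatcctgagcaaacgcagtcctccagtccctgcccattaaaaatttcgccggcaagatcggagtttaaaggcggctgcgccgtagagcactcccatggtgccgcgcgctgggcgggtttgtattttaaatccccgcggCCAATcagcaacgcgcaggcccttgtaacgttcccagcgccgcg
Mcm5: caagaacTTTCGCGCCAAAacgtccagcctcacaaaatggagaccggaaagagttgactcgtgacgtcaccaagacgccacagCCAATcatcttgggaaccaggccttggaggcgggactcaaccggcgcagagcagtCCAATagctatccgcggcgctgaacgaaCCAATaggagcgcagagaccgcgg
They lie at chr13:100786457-100786646 (minus strand), chr9:70421525-70421714 (minus), chr10:69352883-69353072 (minus), chr7:122159275-122159464 (plus) and chr8:75109349-75109538 (plus). Ccnb1, Ccnb2 and Cdk1 encode the cyclins B and the kinase they activate for entry into mitosis. Plk1 encodes a mitotic kinase, and Mcm5 a subunit of the replicative helicase. Cdk1 held TTTGAA at -71 to -66 and again at -15 to -10, counted from the start, and an E2F word at -131 to -124. The TTTGAA of Plk1, at 31 to 36, lies past the stretch shown. A further TTTGAA of Ccnb2, at -167 to -162, and a further ATTGG of Cdk1, at -208 to -204, lie before the stretch shown. In Mcm5 the capitals near the 5′ end join the E2F words TTTCGCGC and GCGCCAAA, which overlap.

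Motifs were searched on both strands in windows of 300 bases, from 250 before to 50 after the start, for 39 promoters of the 37 members in the table and for all 32851 promoters. The CHR core TTTGAA was found in 17 of the 39 promoters (43.6%), against 17.9% of all promoters. Its variant TTCGAA was found in 4 (10.3%), against 1.56%. The CCAAT box was found in 29 (74.4%), against 37.4%. An E2F word was found in 7 (17.9%), against 2.26%. At least 1 of all these words was found in 31 (79.5%), against 50.2%. The words counted as E2F were TTTCCCGC, TTTGGCGC, TTTCGCGC and TTTGCCGC. Of the 18 promoters of kinase and checkpoint, anaphase, centromere and spindle genes, a grouping that leaves out the cyclins and Cdk1, 12 held TTTGAA and 0 held an E2F word. Of the 13 promoters of licensing and nucleotide genes, 1 held TTTGAA and 6 held an E2F word, and the remaining E2F match was that of Cdk1. The difference between the groupings was not tested. These are matches of letters and no record of binding.

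In lung, part of the S-phase and mitotic genes rose at every dose, and 0 were called lower. Calls required a fold change of 1.5 or more and an adjusted p (Benjamini-Hochberg, limma, over all 55681 probes) of 0.05 or less. At D1, 12 of the 45 genes were called higher, against 0.138% of all probes. The count was 17 at D2, against 0.253%, and 20 at D3, against 0.555%. By the brightest probe of each gene, 1.02% of all genes were called higher at D3. For the mean of the 3 doses it was 18, against 0.383% of probes. The median log2 difference of the members was 0.45 (D1), 0.52 (D2) and 0.55 (D3, 1.46-fold), and 39, 41 and 42 members lay above 0. At an unadjusted p under 0.05, 33 members were higher at D3, against 6.7% of all probes, and 0 were lower. Whether the doses differed from each other was not tested. After median centring without loess 0 members were called at any dose, with a median of 0.94 at D3.

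**Figure D1:**
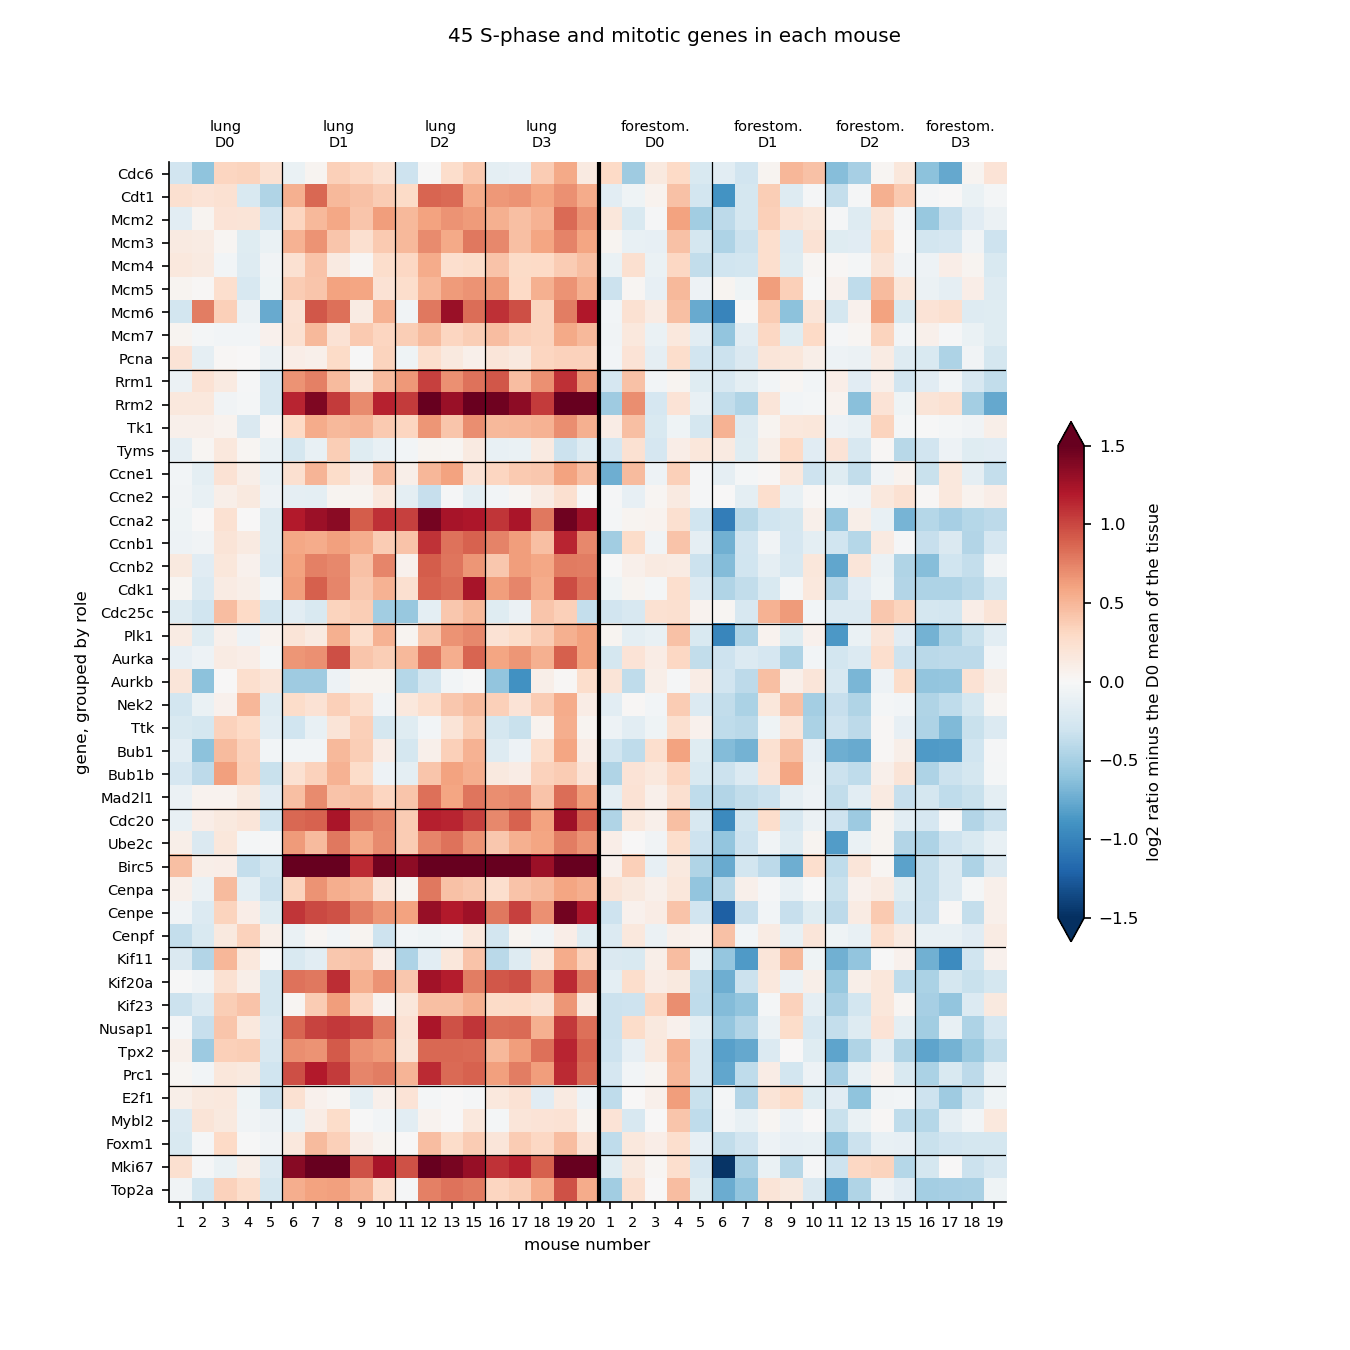
Heat map of the 45 S-phase and mitotic genes (rows, by role) in each mouse (columns, by tissue and dose group), coloured by log2 ratio minus the mean of the D0 mice of the same tissue. Treated lungs are mainly above the D0 mean, with 20 genes called higher at D3. Treated forestomachs lie near or under it, with 0 called. After median centring without loess the forestomachs lie mainly over it, as do the probes well above background as a whole.

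The mean over the 45 genes, set to 0 at the D0 mean of the tissue, lay between -0.16 and 0.20 in the D0 lungs. Its range was 0.38 to 0.60 (D1), 0.22 to 0.65 (D2) and 0.42 to 0.75 (D3). Thus no treated lung overlapped the D0 lungs, and the lowest treated value was that of D2 mouse 11. Without this mouse, 24 members were called at D2. Per gene, every treated mouse lay above every D0 mouse for 22 (D1), 21 (D2) and 26 (D3) members. Over all probes this held for 0.92%, 1.58% and 2.05%. All 20 genes called at D3 were among the 26. No member had every treated lung below every D0 lung. Arrays were hybridised on 5 slides. Within the slides that held both groups, the median of the members was 0.30 to 0.60 for D1, 0.42 to 0.67 for D2 and 0.31 to 0.69 for D3. In RNA from whole tissue sections, a change in the number of cycling cells and a change in RNA per cell cannot be told apart.

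**Figure D2:**
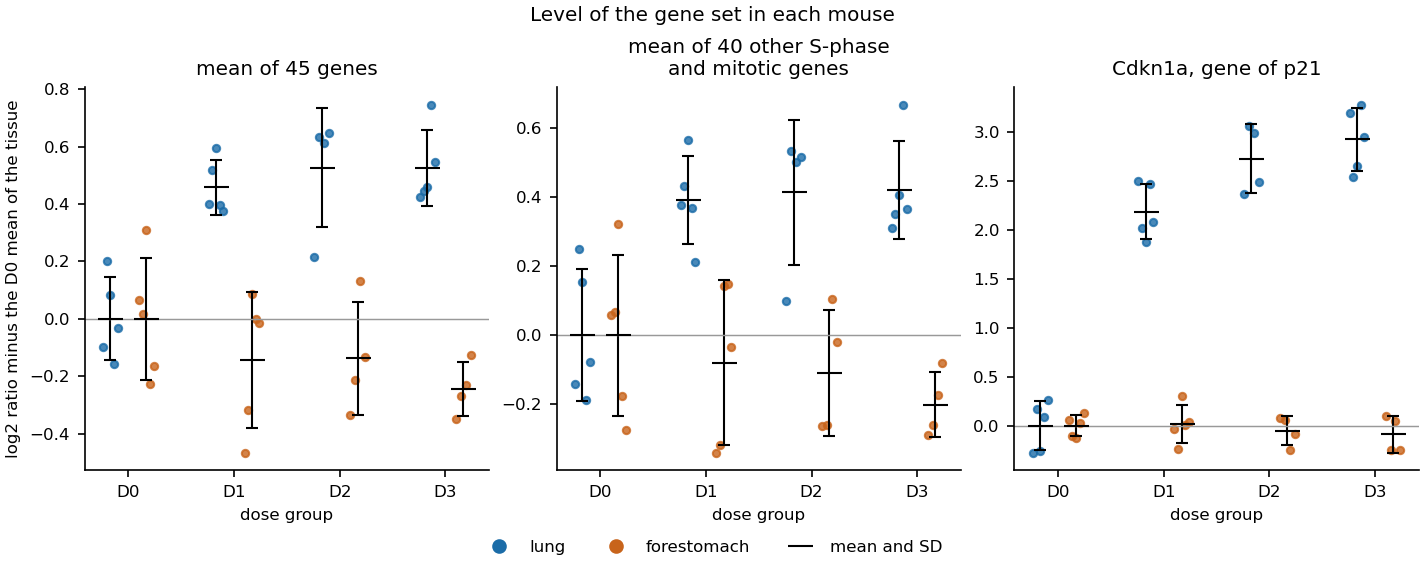
Mean log2 ratio of the 45 S-phase and mitotic genes, of 40 other genes of S phase and mitosis and of Cdkn1a in each mouse, relative to the D0 mean of the tissue, with group means. In lung every treated mouse lies above the D0 mice for the 45 genes and for Cdkn1a, and in forestomach the groups overlap. For the 40 other genes the lungs of D1 (from 0.21) and D2 (from 0.10) overlap those of D0 (up to 0.25).

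Cdkn1a encodes p21 itself. In lung its log2 ratios were -0.73, -1.27, -0.82, -1.25 and -0.91 at D0, 1.5, 1.02, 0.88, 1.47 and 1.09 at D1, 1.37, 2.07, 2.0 and 1.49 at D2 and 2.2, 1.55, 1.66, 2.29 and 1.96 at D3 (values here and below by ascending mouse number). All treated lungs lay above all D0 lungs. The rise was 4.57-fold (D1), 6.64-fold (D2) and 7.61-fold (D3), with a log2 difference of 2.93 ± 0.17 (SE) at D3 and an adjusted p of 1.84e-09 by limma. In forestomach the log2 differences were 0.02, -0.05 and -0.08, none of them called.

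Mki67 had the third largest rise of the set at D3, after Birc5 and Rrm2. It encodes the antigen Ki-67, which coats mitotic chromosomes and is used to stain cycling cells. In lung it was measured at -3.52, -3.78, -3.86, -3.67 and -3.97 at D0, -2.39, -2.23, -2.15, -2.8 and -2.52 at D1, -2.81, -2.19, -2.34 and -2.45 at D2 and -2.68, -2.59, -2.86, -2.27 and -2.25 at D3. Every treated mouse lay above every D0 mouse. The difference at D3 was 1.23 ± 0.14 (log2, SE), or 2.35-fold, with an adjusted p of 4.44e-05. Its second probe gave 1.24. Top2a encodes the topoisomerase that untangles sister chromatids, and its values were -3.52, -3.74, -3.12, -3.2 and -3.73 at D0, -2.92, -2.86, -2.85, -2.95 and -3.21 at D1, -3.48, -2.71, -2.65 and -2.68 at D2 and -3.14, -3.09, -2.9, -2.51 and -2.91 at D3. The range of each treated group overlapped that of D0, and mouse 10 of D1 (-3.21) and mouse 11 of D2 (-3.48) stood lowest in their groups. The log2 difference at D3 was 0.55 ± 0.16 with an adjusted p of 0.103, and Top2a was not called. The log ratio of Feature Extraction, the scanner software, called it at 1.42 (adjusted p = 0.00354).

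Of 9 genes of origin licensing and the replication fork, 3 were called higher at D3. Cdt1 loads the MCM helicase onto origins. It lay at -3.33, -3.37, -3.35, -3.8 and -4.03 at D0, -3.04, -2.71, -3.09, -3.14 and -3.2 at D1, -3.29, -2.7, -2.73 and -3.02 at D2 and -2.92, -2.9, -2.99, -2.89 and -3.02 at D3. No overlap with D0 was seen for any treated mouse, and the D3 difference was 0.63 ± 0.14 (adjusted p = 0.0184). Mcm2, a helicase subunit, lay at -2.88, -2.68, -2.51, -2.52 and -3.0 at D0, -2.39, -2.23, -2.14, -2.3 and -2.09 at D1, -2.23, -2.12, -2.04 and -2.08 at D2 and -2.19, -2.27, -2.2, -1.87 and -2.04 at D3. The D0 range was exceeded by every treated mouse. Mcm3, another subunit, gave -2.38, -2.39, -2.49, -2.7 and -2.62 at D0, -2.0, -1.84, -2.1, -2.27 and -2.12 at D1, -2.03, -1.81, -1.95 and -1.73 at D2 and -1.79, -2.06, -1.93, -1.77 and -1.93 at D3. All values of the treated mice were above the D0 values. Mcm2 and Mcm3 rose 1.52-fold and 1.54-fold at D3 (adjusted p = 0.00204 and 6.88e-04). The other MCM subunits, Mcm4 to Mcm7, had D3 differences between 0.37 and 0.87 that were not called. Mcm6 had the largest of them and also the largest spread, with an adjusted p of 0.123. Mcm4, Mcm5 and Mcm7 missed the fold limit alone, with adjusted p values of 0.0321, 0.00902 and 0.00134 by limma. In these genes every D3 mouse lay above every D0 mouse. Pcna, the sliding clamp of the DNA polymerases, lay at -1.55, -1.89, -1.73, -1.75 and -1.84 at D0, -1.65, -1.68, -1.46, -1.76 and -1.42 at D1, -1.82, -1.5, -1.6 and -1.68 at D2 and -1.57, -1.6, -1.43, -1.41 and -1.41 at D3. The range of each treated group overlapped that of D0. Its D3 difference was 0.27 ± 0.09 and was not called (adjusted p = 0.164). The differences of Cdt1, Mcm2 and Mcm3 lie near the fold limit, and their calls depended on single mice. Cdt1 lost its call without D0 mouse 4 or 5 or without D3 mouse 16 or 19 (0.52 to 0.63). Mcm2 lost it without D0 mouse 1 or 5 or D3 mouse 19 or 20 (0.53 to 0.58), and Mcm3 without D0 mouse 4 (0.58).

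Both subunits of ribonucleotide reductase, which makes the deoxynucleotides for DNA synthesis, rose. Rrm2 encodes the subunit that is made in S phase and gave -4.04, -4.04, -4.25, -4.23 and -4.44 at D0, -3.06, -2.8, -3.15, -3.49 and -3.05 at D1, -3.15, -2.4, -2.91 and -2.72 at D2 and -2.74, -2.86, -3.15, -2.49 and -2.71 at D3. Every treated mouse exceeded the highest D0 value. At D3 it was 2.65-fold higher (log2 1.41 ± 0.14, adjusted p = 7.16e-06). Rrm1, the large subunit, gave -2.51, -2.2, -2.29, -2.44 and -2.66 at D0, -1.75, -1.67, -1.95, -2.25 and -1.95 at D1, -1.77, -1.4, -1.73 and -1.6 at D2 and -1.49, -1.96, -1.74, -1.32 and -1.76 at D3. No overlap with D0 was seen for the mice of D2 and D3, and D1 overlapped the D0 range, with 0.76 ± 0.12 at D3. Tk1, thymidine kinase, had a D3 difference of 0.55 that missed the fold limit alone and was not called (adjusted p = 0.00124 by limma). Tyms encodes thymidylate synthase and lay at -0.61, -0.44, -0.31, -0.44 and -0.57 at D0, -0.74, -0.59, -0.1, -0.66 and -0.59 at D1, -0.52, -0.43, -0.45 and -0.34 at D2 and -0.59, -0.57, -0.34, -0.8 and -0.67 at D3. The range of each treated group overlapped that of D0. Its D3 difference was -0.12 ± 0.10, among the 4 lowest of the set.

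Cyclins and their kinase showed 4 of 7 genes called at D3. Ccna2, cyclin A2, acts in S phase and G2 and lay at -3.62, -3.55, -3.33, -3.55 and -3.75 at D0, -2.37, -2.28, -2.21, -2.65 and -2.47 at D1, -2.54, -2.13, -2.32 and -2.35 at D2 and -2.49, -2.33, -2.77, -2.1 and -2.29 at D3. All values of the treated mice were above the D0 values. Its log2 rise was 1.17 in D1, 1.23 in D2 and 1.17 ± 0.12 in D3 mice (adjusted p = 5.72e-06). Ccnb1 gave -3.77, -3.75, -3.5, -3.56 and -3.88 at D0, -3.11, -3.13, -3.08, -3.15 and -3.31 at D1, -3.27, -2.61, -2.88 and -2.81 at D2 and -2.95, -3.06, -3.24, -2.55 and -2.97 at D3. Every treated mouse lay above every D0 mouse. Ccnb2 gave -2.58, -2.9, -2.56, -2.67 and -2.94 at D0, -2.13, -1.97, -2.01, -2.29 and -2.0 at D1, -2.66, -1.82, -1.93 and -2.07 at D2 and -2.32, -2.1, -2.15, -1.95 and -1.96 at D3. Every mouse of D1 and D3 exceeded the highest D0 value, and D2 overlapped it. Cyclin B1 rose 1.67-fold and cyclin B2 1.55-fold at D3 (adjusted p = 0.00204 and 0.0126). Without D0 mouse 5 Ccnb2 was at 0.58 and was not called. Cdk1, whose promoter holds both TTTGAA words shown above, was at -3.27, -3.51, -3.18, -3.21 and -3.34 at D0, -2.67, -2.4, -2.57, -2.9 and -2.78 at D1, -3.06, -2.42, -2.46 and -2.06 at D2 and -2.68, -2.57, -2.74, -2.32 and -2.49 at D3. No overlap with D0 was seen for any treated mouse. Its probe was well above background on 3 of 5 D0 lung arrays and on all treated ones, and the D3 difference was 0.74 ± 0.14 (adjusted p = 0.00607). Ccne1, cyclin E1 of the entry into S phase, differed by 0.44, missed the fold limit alone and was not called (adjusted p = 0.0345 by limma). Ccne2 and Cdc25c were at or under the background on most arrays.

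**Figure D3:**
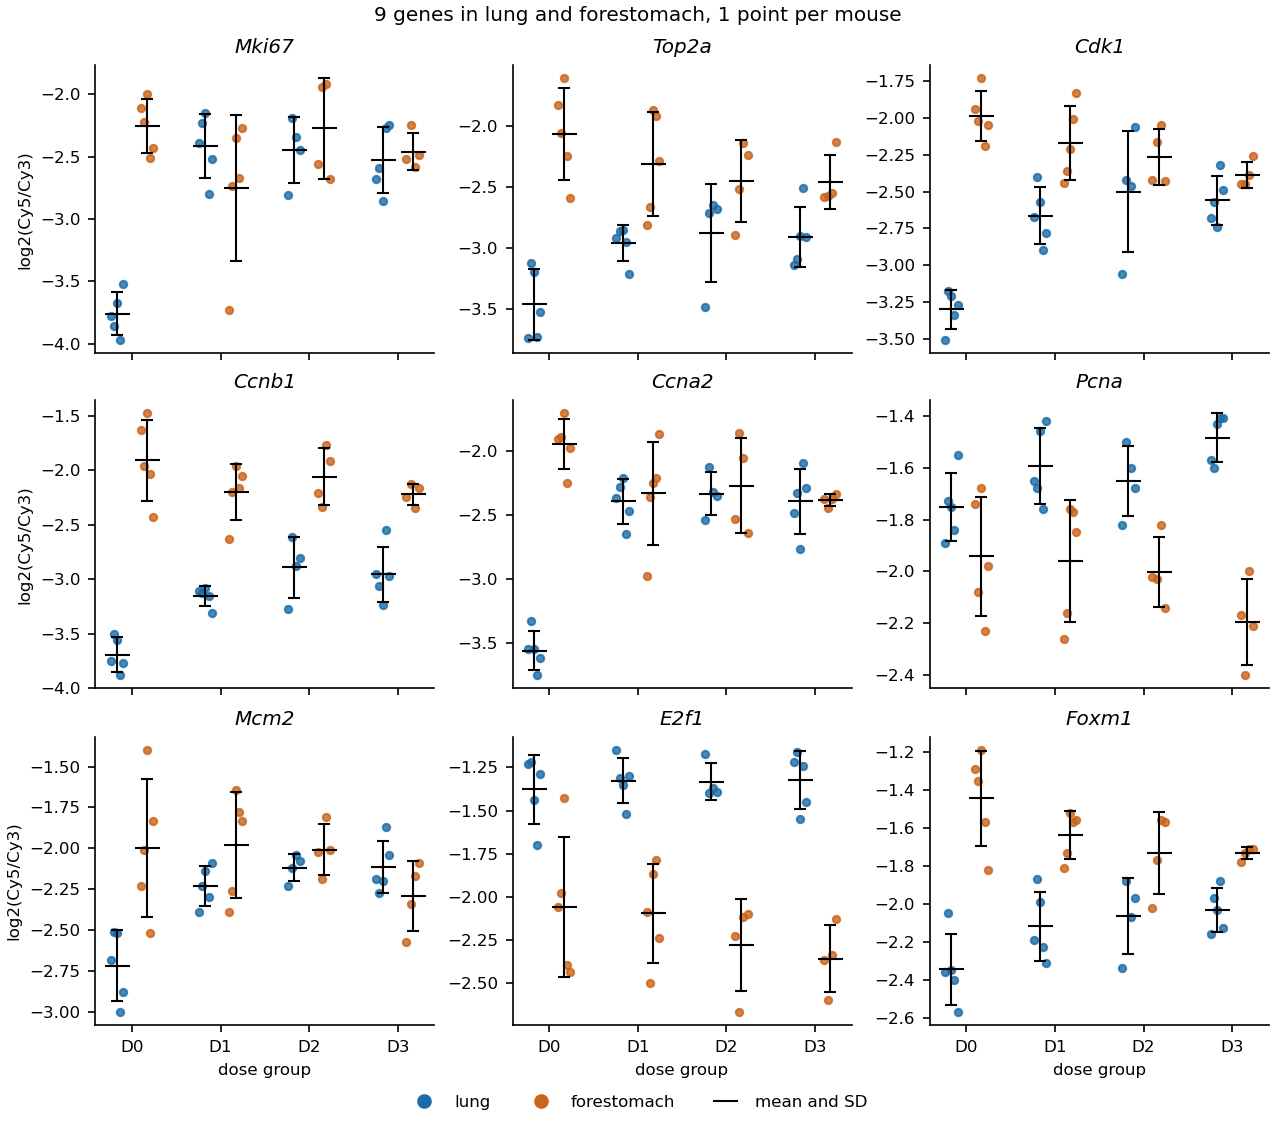
Log2 ratio to the reference RNA of Mki67, Top2a, Cdk1, Ccnb1, Ccna2, Pcna, Mcm2, E2f1 and Foxm1 in lung and forestomach at D0 to D3, 1 point per mouse, with mean and SD. In lung, Mki67 and Ccna2 are separated from D0 at each dose, and E2f1 overlaps D0 at each dose.

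Of 8 genes of mitotic kinases and the spindle checkpoint, 2 were called higher at D3. Aurka encodes the kinase Aurora A of the spindle poles and lay at -3.42, -3.37, -3.17, -3.2 and -3.33 at D0, -2.64, -2.61, -2.33, -2.88 and -2.93 at D1, -2.81, -2.49, -2.75 and -2.43 at D2 and -2.71, -2.64, -2.76, -2.4 and -2.7 at D3. The D0 range was exceeded by every treated mouse. Mad2l1 encodes a checkpoint protein that holds back anaphase, at -3.01, -2.87, -2.87, -2.78 and -3.1 at D0, -2.47, -2.22, -2.5, -2.48 and -2.6 at D1, -2.51, -2.1, -2.34 and -2.12 at D2 and -2.23, -2.21, -2.5, -2.09 and -2.3 at D3. All values of the treated mice were above the D0 values. Their D3 differences were 0.66 ± 0.11 and 0.66 ± 0.10 (adjusted p = 0.00219 and 6.76e-04). Plk1, Nek2, Bub1 and Bub1b had differences of 0.41, 0.32, 0.14 and 0.24, and none was called. The probes of Bub1 and Bub1b were well above background on 2 and 3 of 5 D0 lung arrays and on all treated ones. Aurkb and Ttk were not well above background on any array of either tissue. The Aurkb probe read -0.13, -0.93, -0.31, -0.06 and -0.13 at D0, -0.84, -0.84, -0.39, -0.27 and -0.27 at D1, -0.74, -0.59, -0.35 and -0.32 at D2 and -0.9, -1.22, -0.22, -0.29 and -0.05 at D3. The Ttk probe read -1.15, -1.18, -0.58, -0.62 and -1.08 at D0, -1.22, -1.03, -0.73, -0.56 and -1.19 at D1, -1.1, -0.96, -0.73 and -0.55 at D2 and -1.18, -1.26, -0.87, -0.38 and -0.88 at D3. Both overlapped between all groups, and no fold is given for them.

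Both genes of the anaphase-promoting complex, the ubiquitin ligase that ends mitosis, rose at every dose. Cdc20, its activator, lay at -3.3, -3.09, -3.04, -3.01 and -3.49 at D0, -2.33, -2.3, -1.96, -2.4 and -2.46 at D1, -2.81, -2.02, -2.04 and -2.16 at D2 and -2.47, -2.3, -2.58, -1.92 and -2.3 at D3. Every treated mouse lay above every D0 mouse. Ube2c, its ubiquitin-conjugating enzyme, lay at -3.08, -3.38, -3.0, -3.19 and -3.18 at D0, -2.53, -2.69, -2.37, -2.6 and -2.46 at D1, -2.78, -2.43, -2.35 and -2.49 at D2 and -2.76, -2.63, -2.57, -2.4 and -2.49 at D3. Every treated mouse exceeded the highest D0 value. At D3 they were 1.83-fold and 1.51-fold higher (adjusted p = 0.0029 and 0.00159). The second probe of Ube2c was also called, at 0.71. Ube2c lost its call without D0 mouse 2 or D3 mouse 19 or 20 (0.54 to 0.58).

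The largest rise of the set was that of Birc5, survivin, a subunit of the chromosomal passenger complex at the centromere. Its log2 ratios in lung were -3.79, -4.15, -4.14, -4.59 and -4.51 at D0, -2.59, -2.66, -2.71, -3.12 and -2.79 at D1, -2.9, -2.4, -2.74 and -2.43 at D2 and -2.74, -2.66, -2.95, -2.46 and -2.59 at D3. No overlap with D0 was seen for any treated mouse. At D3 it was 2.94-fold higher, with a log2 difference of 1.55 ± 0.14 and an adjusted p of 1.70e-06. Its dimmer probes gave 0.46 and 0.86 and were not called. Cenpe, a kinetochore motor protein, lay at -4.11, -4.27, -3.73, -3.96 and -4.24 at D0, -2.99, -3.07, -3.11, -3.29 and -3.4 at D1, -3.46, -2.75, -2.87 and -2.79 at D2 and -3.27, -3.04, -3.38, -2.61 and -2.85 at D3. The D0 range was exceeded by every treated mouse, and the D3 difference was 1.03 ± 0.15 (adjusted p = 6.88e-04). Cenpa, the histone H3 variant of centromeres, differed by 0.46 and was not called. Cenpf was not well above background on any array, and its probe read -0.68, -0.55, -0.18, 0.02 and -0.24 at D0, -0.43, -0.3, -0.37, -0.28 and -0.64 at D1, -0.37, -0.39, -0.37 and -0.17 at D2 and -0.6, -0.28, -0.38, -0.23 and -0.51 at D3, with overlap between all groups.

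Among 6 genes of the spindle and of cytokinesis, 4 rose at D3. Nusap1 and Tpx2 bind and nucleate spindle microtubules. Kif20a and Prc1 build the central spindle of dividing cells. Kif20a lay at -3.31, -3.36, -3.07, -3.21 and -3.56 at D0, -2.49, -2.51, -2.19, -2.77 and -2.63 at D1, -2.9, -2.04, -2.13 and -2.53 at D2 and -2.37, -2.33, -2.6, -2.18 and -2.54 at D3. All values of the treated mice were above the D0 values. Nusap1, detected on 3 of 5 D0 lung arrays, lay at -3.21, -3.54, -2.77, -3.03 and -3.4 at D0, -2.32, -2.18, -2.13, -2.18 and -2.41 at D1, -2.97, -1.97, -2.23 and -2.12 at D2 and -2.35, -2.34, -2.66, -2.13 and -2.36 at D3. Every mouse of D1 and D3 lay above every D0 mouse, and D2 overlapped the D0 range. Tpx2 was at -3.51, -4.13, -3.23, -3.22 and -3.83 at D0, -2.89, -2.91, -2.66, -2.9 and -2.95 at D1, -3.39, -2.72, -2.72 and -2.73 at D2 and -3.1, -2.96, -2.76, -2.44 and -2.7 at D3. Every mouse of D1 and D3 exceeded the highest D0 value, and D2 overlapped it. Prc1 was at -2.36, -2.43, -2.21, -2.24 and -2.68 at D0, -1.42, -1.2, -1.34, -1.65 and -1.62 at D1, -1.87, -1.26, -1.53 and -1.5 at D2 and -1.77, -1.62, -1.76, -1.27 and -1.53 at D3. No overlap with D0 was seen for any treated mouse. The D3 differences were 0.9 for Kif20a, 0.82 for Nusap1, 0.79 for Tpx2 and 0.79 for Prc1 (SE 0.14, 0.16, 0.17 and 0.12). Their adjusted p values were 0.00156, 0.00902, 0.0157 and 0.00137. Tpx2 was called at D3 alone of the doses and lost its call without D0 mouse 5 (0.73) or D3 mouse 19 (0.70). Kif11 and Kif23, motors of the spindle, differed by 0.09 and 0.33 and were not called. The Kif11 probe was well above background on 1 of 5 D0 lung arrays and on 5, 3 and 5 arrays at D1 to D3.

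None of the 3 transcription factors of the set was called in lung. E2f1, the E2F factor of S-phase entry, lay at -1.29, -1.23, -1.22, -1.44 and -1.7 at D0, -1.15, -1.31, -1.35, -1.52 and -1.3 at D1, -1.17, -1.4, -1.37 and -1.39 at D2 and -1.22, -1.16, -1.55, -1.24 and -1.45 at D3. The range of each treated group overlapped that of D0. Foxm1, the factor of mitotic genes, lay at -2.57, -2.36, -2.05, -2.35 and -2.4 at D0, -2.19, -1.87, -1.99, -2.23 and -2.31 at D1, -2.34, -1.88, -2.07 and -1.97 at D2 and -2.16, -1.97, -2.03, -1.88 and -2.13 at D3. The range of each treated group overlapped that of D0. Their D3 differences were 0.05 ± 0.10 and 0.31 ± 0.11 (adjusted p = 0.905 and 0.201). Mybl2, the MYB protein that joins the mitotic complex, differed by 0.12 ± 0.09.

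Of the 45 members, 31 were well above background on all 19 lung arrays, 10 on some and 4 on none (Ccne2, Aurkb, Ttk and Cenpf). Of the 31, 18 were called at D3, with a median difference of 0.63. For 11 members the array held further, dimmer probes. Those of Ccnb1 (0.01 and 0.11), Cdk1 (0.01 and -0.08), Mad2l1 (at most 0.19), Tpx2 (-0.12) and Birc5 (0.46 and 0.86) were not called at D3. They were well above background on at most 18 of the 19 lung arrays (Birc5). With the median of all probes of a gene, 15 members were called at D3.

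Other sources of the log ratio moved single members in lung at D3. By Feature Extraction, Nusap1 was at 1.98, Cdk1 at 1.78, Tpx2 at 1.73, Kif20a at 1.45, Ccnb1 at 1.26 and Mcm2 at 1.03, each over 1.5 times the value above and called, and Cdt1 lost its call (0.69). After quantile normalization Mcm2, Mcm3, Cdt1, Ccnb2, Aurka, Mad2l1 and Ube2c lost theirs, at 0.54, 0.58, 0.60, 0.58, 0.57, 0.58 and 0.49. In the deposited matrix Mcm2 (0.55), Ube2c (0.57) and Tpx2 (0.73, adjusted p = 0.0514) were not called.

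**Figure D4:**
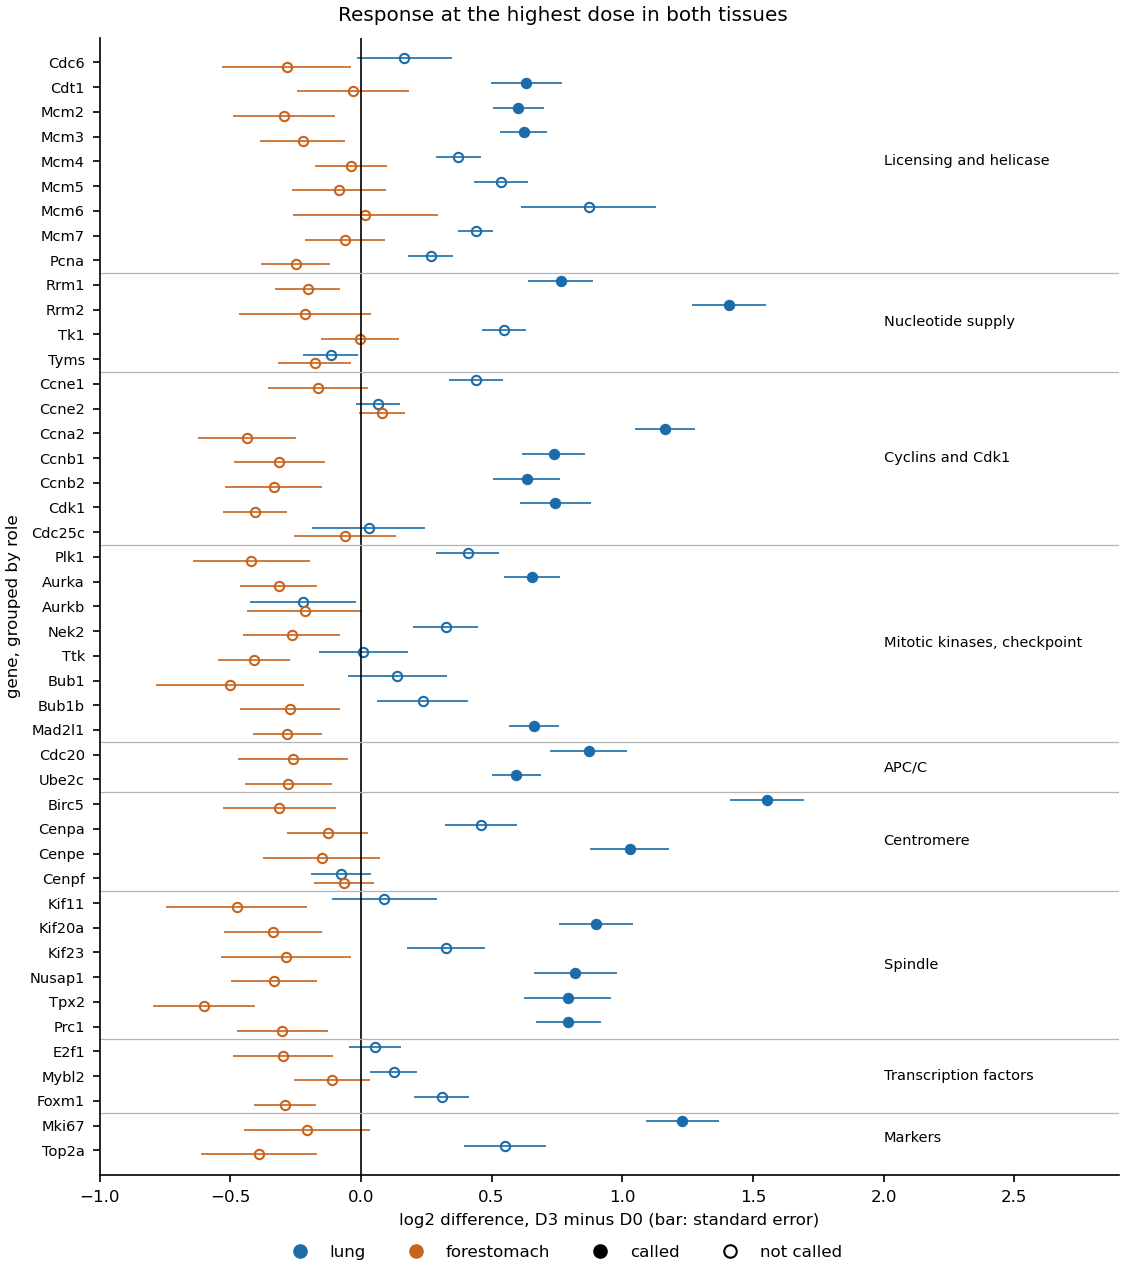
Log2 difference of D3 minus D0 with its SE for each of the 45 genes in lung and in forestomach, with filled symbols for called genes. Lung differences reach 1.55 for Birc5 with 20 called, and forestomach differences lie mainly under 0 with 0 called. After median centring without loess the forestomach differences lie mainly over 0, as do the probes well above background as a whole.

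Further genes of S phase and mitosis that are no members were also followed, with the loess-normalized values alone. Of 40 such genes, 12 were called higher at D3 in lung, against 1.02% of all genes, and 0 lower, 39 lay above 0, and the median difference was 0.38. Spc25, a kinetochore protein (1.6), Uhrf1, which keeps DNA methylation through replication (1.03), and Ckap2, a spindle protein (1.02), led them. Among the rest were Pbk, Anln, Kif22, Racgap1, Cdca8, Pole, Fen1 and Ncapd2, at 0.60 to 0.83. The mean of the 40 genes, relative to D0, reached 0.25 in D0 lungs. It began at 0.21 (D1), 0.10 (D2) and 0.31 (D3) in treated lungs, so D1 and D2 overlapped D0. Of 28 regulators of the cycle, 6 were called higher at D3, against the same 1.02% of all genes, and 0 lower. Beside Cdkn1a they were Ccng1 (1.95) and Mdm2 (0.83), which p53 also switches on, Ccnd1, cyclin D1 of G1 (1.14), and the repressors E2f7 (0.6) and E2f8 (0.6).

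Markers of the cells that a lung section could hold in varying amount were followed beside these genes. Of 6 markers of lung epithelium, 8 of B lymphocytes, 6 of T lymphocytes, 5 of macrophages and 5 of erythroid cells, 0 were called in lung at D3. The mean of the B lymphocyte markers, relative to D0, lay between -0.53 and 0.37 at D0 and between -0.34 and 0.19 at D3. For T lymphocyte markers it lay between -0.17 and 0.23 at D0 and between -0.36 and 0.02 at D3, and for macrophage markers between -0.36 and 0.23 and between -0.25 and 0.41. Erythroid markers lay between -0.13 and 0.20 and between -0.26 and 0.00, and lung epithelial markers between -0.33 and 0.34 and between -0.46 and 0.22. Which cells carried the rise was not tested.

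In forestomach, 0 of the 45 genes were called at any dose in either direction, and 0 of all 55681 probes were called. The median log2 difference of the members was -0.17 for D1, -0.14 for D2 and -0.27 for D3, and 43 of 45 lay under 0 at D3. When arrays were centred on the median without loess, the medians of the members were 0.08, 0.50 and 0.46. Under that centring the probes well above background moved as a whole, by 0.23, 0.64 and 0.71. Relative to that shift 10, 12 and 5 members were higher. At an unadjusted p under 0.05, 6 members were lower at D3 (1.77% of all probes) and 6 for the mean of the doses (1.86%), and 0 were higher. Every D3 mouse lay below every D0 mouse for 4 members, against 0.641% of all probes. They were Ccna2, Cdk1, Tpx2 and Ttk, named after their values were seen, and the Ttk probe was not above background. At D1 and D2 this held for 0 members, against 0.289% and 0.512%.

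Tpx2 had the lowest D3 difference in forestomach, -0.6 ± 0.20 (adjusted p = 1), from log2 ratios of -2.63, -2.45, -2.17, -1.8 and -2.57 at D0, -3.14, -3.09, -2.53, -2.32 and -2.5 at D1, -3.12, -2.77, -2.46 and -2.77 at D2 and -3.11, -3.03, -2.88 and -2.69 at D3. Ccna2 was at -0.43 ± 0.19, from -1.98, -1.91, -1.89, -1.71 and -2.25 at D0 to -2.38, -2.45, -2.38 and -2.34 at D3. In both genes the D3 mice lay below the D0 mice. Bub1, a checkpoint kinase, read -2.73, -2.81, -2.18, -1.83 and -2.61 at D0 and -3.28, -3.27, -2.73 and -2.45 at D3. Kif11, the motor that separates the spindle poles, read -1.55, -1.57, -1.25, -0.87 and -1.44 and -2.06, -2.28, -1.64 and -1.27. D0 and D3 overlapped in both. Bub1 and Kif11, at -0.5 and -0.47, were detected on 8 and 12 of the 19 forestomach arrays. At the other end stood Ccne2 (0.08, not above background on any array), Mcm6 (0.02), Tk1 (near 0) and Cdt1 (-0.03). Mcm6 lay at -2.48, -2.21, -2.32, -1.99 and -3.2 at D0 and -2.24, -2.2, -2.63 and -2.62 at D3. Tk1 lay at -0.94, -0.61, -1.29, -1.12 and -1.32 and -1.06, -1.09, -1.11 and -0.97, and Cdt1 at -3.02, -2.93, -2.81, -2.43 and -3.14 and -2.88, -2.86, -2.96 and -2.89. These last groups overlapped throughout. Within slides the median of the members ranged from -0.41 to 0.19 for D1, from -0.46 to 0.09 for D2 and from -0.44 to -0.05 for D3.

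Forestomach samples differed in how much glandular stomach they held. The mean of 9 glandular markers, such as gastrokines and the proton pump, lay between -3.38 and 2.74 on single arrays relative to D0. It was under -2.7 on 6 arrays, those of D0 mice 2 and 5, D1 mice 8 and 9, D2 mouse 15 and 1 of the 2 arrays of D3 mouse 18. At D3 all 9 markers lay above 0 with a median of 1.17, and none was called. With this mean as a covariate, 0 members were called and the medians were -0.18, -0.14 and -0.24. The 2 arrays labelled mouse 18 were averaged to 1 replicate. They correlated at 0.773, with glandular means of -2.80 and 2.31, and their mean over the members was -0.23 and -0.24. The second lay on slide 5, which also held lung of mouse 20, and whether both came from mouse 18 was not tested. With either array alone or both as samples, 0 members were called at D3. Of the 40 other genes of S phase and mitosis, 0 were called in forestomach at D3.

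The tissues differed in the D0 mice, which received olive oil alone. At D0, 31 of the 45 genes were higher in forestomach than in lung, against 7.6% of all probes called higher, and 1 was lower, against 8.61% called lower. By the brightest probe of each gene, 2555 of 20018 genes were called higher and 2971 lower. The median difference of the 45 genes was 0.86 on the log2 scale (1.82-fold). After quantile normalization 18 members were called higher and 3 lower. After median centring without loess 0 were called higher, with a median of 0.23. Under that centring the probes well above background lay at -0.46 as a whole, and 41 members lay above that shift. Birc5 was at -3.79, -4.15, -4.14, -4.59 and -4.51 in lung and -1.96, -1.67, -2.14, -1.87 and -2.47 in forestomach, a difference of 2.21 ± 0.18 (adjusted p = 6.62e-12). Cdc20 was at -3.3, -3.09, -3.04, -3.01 and -3.49 against -1.83, -1.21, -1.3, -0.92 and -1.61. Ccnb1 was at -3.77, -3.75, -3.5, -3.56 and -3.88 against -2.43, -1.63, -1.96, -1.48 and -2.04. Rrm2 was at -4.04, -4.04, -4.25, -4.23 and -4.44 against -3.03, -1.8, -2.75, -2.29 and -2.61. These 4 had the largest differences, at 4.64, 3.51, 3.44 and 3.25-fold, and no forestomach value overlapped a lung value. The dimmer probes gave smaller log2 differences for Birc5 (1.28 and 1.30) and for Ccnb1 (0.938 and 0.925).

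E2f1 was the member that was lower in forestomach, at -2.44, -2.06, -1.98, -1.43 and -2.4 against -1.29, -1.23, -1.22, -1.44 and -1.7 in lung. The forestomach value of -1.43 lay within the lung range. The difference was -0.69 ± 0.15 with an adjusted p of 4.48e-04. Mcm4 (-0.26), Pcna (-0.19) and Ccne2 (-0.05) were not called. After quantile normalization Mcm4 (-0.74) and Pcna (-0.60) were also called lower in forestomach, and E2f1 was at -1.05. E2f1 was at -1.28 by Feature Extraction. Cdc6, the origin loading factor, was among the 31, but its probe cleared the background on 0 of 5 D0 arrays in lung and on 2 of 5 in forestomach, so no fold is given. By role, 6 of 6 spindle genes, both anaphase genes and 6 of 8 kinase and checkpoint genes were higher in forestomach, and 3 of 9 licensing genes were. Whether the roles differ in this was not tested. Of the genes called higher, Bub1 cleared the background on 2 of 5 D0 arrays in lung and on 1 of 5 in forestomach. Kif11 did so on 1 of 5 in lung and on 3 of 5 in forestomach. Lung epithelial markers were lower in forestomach for 6 of 6 and squamous markers higher for 6 of 6. Markers of glandular stomach were higher for 6 of 9. The part of cell content in the difference was not tested.

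**Figure D5:**
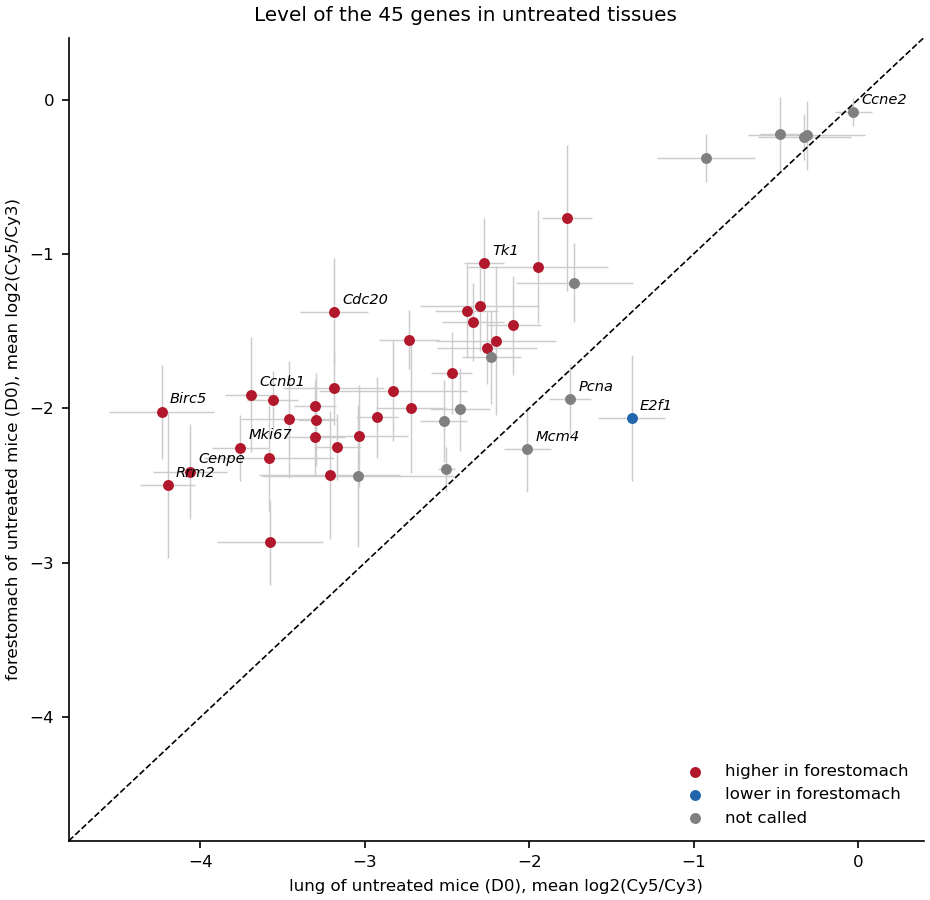
Mean log2 ratio to the reference RNA of each of the 45 genes at D0 in forestomach (vertical) against lung (horizontal), with SD over 5 mice per tissue. Of the points, 31 are called higher and 1, E2f1, lower in forestomach.

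The responses of the tissues were compared in 1 fit over all arrays. The lung response at D3 exceeded that of forestomach for 15 members, against 0.167% of all probes, and was lower for 0, with a median difference of 0.66. For the mean of the doses it did so for 18 members, against 0.194%, with a median of 0.63. Birc5 (1.87 ± 0.26, adjusted p = 2.65e-04), Rrm2 (1.62, 0.00651), Ccna2 (1.6, 1.86e-04) and Mki67 (1.44, 0.016) had the largest. The other 11 lay between 0.85 and 1.39. The number of members called was 24 with slide as a block, 23 with scan day as a block, 5 after quantile normalization (Birc5, Ccna2, Cdk1, Tpx2 and Prc1) and 0 after median centring without loess. Calls were also lost by Feature Extraction (Mcm3), in the deposited matrix (Ube2c and Nusap1), with only the groups compared in the fit (Rrm1 and Ccnb1) and with the first (Mcm3) or second (Ube2c) array of forestomach mouse 18 alone. With mouse as a block, since both tissues came from the same animals, 16 members were called, and Rrm2 (1.6, adjusted p = 0.0561) and Mcm3 (0.86, adjusted p = 0.144) were not. In Birc5 the D3 lungs lay at -2.74, -2.66, -2.95, -2.46 and -2.59, and 1 of them reached the range of the D0 forestomachs.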

How the data were processed

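RNA of each tissue was labelled with Cy5 and the reference RNA with Cy3, with no dye swap, on 38 arrays of 62976 spots on 5 slides. The authors deposited the scanner output, which gives for each spot the median intensity in both channels, not background-subtracted and not normalized, and a log10 ratio that Feature Extraction had corrected for background and dye. A deposited matrix of log2 ratios matched the values computed here with slopes of 0.990 to 0.998 (column medians -0.0415 to -0.0195), and its normalization is not stated in it.

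Log ratios of the median intensities were loess-normalized per array with no background subtracted, after the study's methods, in R 4.3.3 with limma 3.58.1, jsonlite 2.0.0 and data.table (version 1.17.8). Control spots and 372 flagged probe values were left out, which gave 55681 probes, and no spot was saturated. The share of probes well above background was 30.1% to 63.8%, and the number of arrays limits the precision. Symbols came from the RefSeq table by accession (26413 probes, 20018 genes). Each tissue was fitted with 1 mean per dose group, and 1 fit over both tissues gave the tissue contrasts. The MAANOVA test of the study's methods was not run. The script was tested on simulated data.

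The members and the lists were chosen with earlier results of these data known. Genes were named by rule: 9 core genes, every member called in a dose contrast, the 4 lowest and 4 highest at D3 in each tissue and between the tissues at D0, Cdkn1a, and called genes of the other lists. Promoters were taken in a set order, with Ccna2 missing from the table, and read with Python 3.11.15, pandas 2.3.3 and numpy 2.4.6. Figures were drawn with matplotlib 3.10.9.

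Lung and forestomach arrays of the same mouse number come from the same animal per the labels. Over 14573 probes, their deviations from the group means correlated at 0.081 to 0.367 in 18 mice (median 0.231). Mouse numbers differ between dose groups, so the dose contrasts had no pairs. The 2 forestomach arrays that the labels give to mouse 18 were averaged before the fit, and no forestomach array is labelled mouse 20. Alternatives were the background correction, the normalization, the source of the log ratio, the filter on dim probes, the probe per gene, slide, scan day or mouse as a block, glandular markers as a covariate, the samples in the fit, the treatment of mouse 18 and leaving out each replicate.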

Additional observations from a re-analysis of the deposited data

Results flagged for a closer look

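Single mice stood apart from their groups in 5 of 104 groups tested by Dixon's criterion, which chance flags in about 1 of 20 groups. In lung, D2 mouse 11 was lowest for the mean of the 45 genes (0.22) and for Top2a (-3.48), and apart for E2f1 (-1.17). D1 mouse 10 was apart for Top2a in lung (-3.21), and D3 mouse 19 for Top2a in forestomach (-2.13).

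The lung and forestomach responses at D3 differed in a direct test for 15 of the 45 genes, with the larger value in lung for each. By limma over all probes, the differences of log2 responses and adjusted p values were 1.87 (2.65e-04) for Birc5, 1.62 (0.00651) for Rrm2, 1.6 (1.86e-04) for Ccna2, 1.44 (0.016) for Mki67 and 1.39 (0.012) for Tpx2. They were 1.24 (0.0138) for Kif20a, 1.15 (0.0227) for Nusap1, 1.15 (0.00283) for Cdk1, 1.09 (0.0171) for Prc1 and 1.05 (0.0209) for Ccnb1. The smallest were 0.97 (0.012) for Aurka, 0.97 (0.00944) for Rrm1, 0.94 (0.00374) for Mad2l1, 0.87 (0.0395) for Ube2c and 0.85 (0.0376) for Mcm3.

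Of these, 5 lost their call when 1 library was left out. Prc1 lost it without forestomach of D3 mouse 16 (1.04). Ccnb1 lost it (0.95 to 1.04) without lung of D0 mouse 5 or D3 mouse 19, or without forestomach of D0 mouse 2 or 4 or D3 mouse 16 or 18. Nusap1 lost it (1.07 to 1.14) without lung of D0 mouse 2 or 5 or D3 mouse 19, or without forestomach of D0 mouse 2, 3 or 4 or D3 mouse 16 or 18. Mcm3 lost it (0.74 to 0.86) without lung of D0 mouse 3, 4 or 5 or D3 mouse 16, 18, 19 or 20, or without forestomach of D0 mouse 1 or 4 or D3 mouse 16, 17 or 19. Ube2c lost it (0.81 to 0.89) without lung of D0 mouse 2, 4 or 5 or D3 mouse 17, 18, 19 or 20, or without forestomach of D0 mouse 1, 2, 3 or 4 or D3 mouse 16, 17 or 18.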

How the results depend on the processing

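The alternative that changed most was median centring without loess. It called 0 members higher at lung D1, D2 and D3, for the mean of the lung doses and in the 3 tissue contrasts, while the medians were 0.80, 0.96, 0.94 and 0.90 in lung, 0.077, 0.50, 0.46 and 0.34 in forestomach (D1, D2, D3 and mean), 0.23 between the tissues at D0, 0.29 for the difference in response at D3 and 0.43 for that over the mean of doses. Under this centring the probes well above background moved as a whole, by 0.37, 0.45 and 0.41 in lung and 0.23, 0.64 and 0.71 in forestomach at D1 to D3. Relative to that shift 37 members were higher at each dose in lung, and 10, 12 and 5 in forestomach. Between the tissues at D0 the shift was -0.46, and 41 members lay above it. For the difference in response at D3 the shift was -0.29, and 45 members lay above it. The log ratios of Feature Extraction gave 21 and 26 called members at lung D1 and D2, medians of 0.80, 0.82, 0.81 and 0.79 in lung, 1.08 between the tissues at D0, and 1.05 and 0.86 for the differences in response. Quantile normalization gave 13 called at lung D3, a median of -0.083 at forestomach D3, 18 higher and 3 lower between the tissues at D0 (median 0.34), 5 for the difference in response at D3 and a median of 0.43 for that over the mean of doses. For the difference in response at D3, slide as a block called 24 and scan day 23. The median was 0.85 over probes well above background and 0.88 over the 30 members detected on all arrays, a choice made after seeing the data. The causes of these shifts were not tested.

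Mouse as a fixed replicate block called 32 higher and 1 lower between the tissues at D0 (median 0.86), 16 for the difference in response at D3 (0.68) and 20 over the mean of doses (0.64), and as a random block 31, 19 and 18. The fixed block ended the call of Rrm2 and Mcm3 for the difference at D3 and of no other named gene.

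Leaving out 1 replicate at a time, members called higher in lung were 9 to 14 at D1, 15 to 24 at D2, 16 to 21 at D3 and 15 to 21 for the mean, with medians of 0.41 to 0.49, 0.47 to 0.60, 0.49 to 0.60 and 0.46 to 0.56. In forestomach 0 were called, with medians of -0.23 to -0.05, -0.25 to -0.06, -0.33 to -0.18 and -0.28 to -0.11. Between the tissues at D0, 26 to 34 were higher and 1 lower (0.81 to 0.94). The difference in response was called for 10 to 17 at D3 (0.57 to 0.79) and 16 to 20 over the mean (0.51 to 0.70).

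Signs turned as follows among the named genes. In lung at D3, E2f1 was at -0.001 with slide as a block and from -0.029 to 0.110 without 1 replicate, Tyms at 0.098 under median centring, Cenpf from -0.164 to 0.011 without 1 replicate, and Ttk at -0.001 by Feature Extraction, -0.012 by quantile normalization and from -0.124 to 0.098 without 1 replicate. In forestomach at D3, median centring gave Tpx2 0.152, Bub1 0.164, Kif11 0.107, Ccna2 0.359, Cdt1 0.766, Tk1 0.768 and Ccne2 -0.089. Cdt1 was at 0.233 (quantile), 0.066 (slide), 0.010 (scan day), 0.016 (first array of mouse 18) and from -0.099 to 0.081 without 1 replicate. Tk1 was at 0.108 (quantile), 0.036 (second array), 0.002 (glandular markers) and from -0.069 to 0.108 without 1 replicate. Mcm6 was at -0.025 (scan day), -0.024 (both arrays as samples), -0.031 (glandular markers) and from -0.173 to 0.129 without 1 replicate. Between the tissues at D0, Ccne2 was at 0.127 under median centring.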

Other observations

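Split by phase, the members of licensing and nucleotide supply (S phase) and those of the kinase and checkpoint, anaphase, centromere and spindle groups (mitosis, without cyclins and Cdk1) both stood above the D0 lungs at D3. The mean of the S-phase members lay between -0.16 and 0.13 in D0 lungs and between 0.44 and 0.68 in D3 lungs. That of the mitotic members lay between -0.22 and 0.26 and between 0.35 and 0.80. In forestomach at D3 the S-phase mean lay between -0.19 and -0.11 and the mitotic mean between -0.48 and -0.08, against D0 ranges of -0.26 to 0.29 and -0.24 to 0.32. The difference between the phases was not tested.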
